A study of Saccharomyces cerevisiae with 12 samples.

Results

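The step examined here is the change in mRNA abundance of budding yeast between 60 and 120 min in Congo Red. It was taken from the samples cDNA t60 and cDNA t120, which are 2 of the 12 samples of the series and hold 6 of its 36 arrays, 3 at each time. Both groups were wild type Saccharomyces cerevisiae BY4741, a laboratory strain, grown in rich glucose medium and exposed to the dye at 30 µg/ml. The samples were 2 times on the same course, and the series holds no culture kept without dye for 120 min, so dye and time in culture cannot be told apart. Arrays were paired by the replicate number in their file names. The labels do not say that replicates were separate cultures, and the p-values therefore cover the variation among these arrays, which could be purely technical. This interval is also the one in which, per the series' design text, the volume factor of the cells went from 1 to 1.17.

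Congo Red is a dye that attaches to chitin and interferes with how the yeast wall is put together. Sensors in the plasma membrane pass wall damage through Rho1 and protein kinase C to the MAP kinase Slt2, which acts on transcription factors such as Rlm1, and genes for wall proteins and for glucan and chitin synthesis are among the known targets. An mRNA level reflects both how fast the transcript is made and how fast it is degraded, so a level can fall without slower synthesis. The arrays measured the 2 sides separately, mRNA by labelled cDNA and synthesis by run-on, in which RNA polymerases of permeabilised cells carry on with transcripts already started. The files and the reference table give no gene for a spot. Spots are therefore given by their place on the array, no wall gene can be named, and no sequence is printed.

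Each array held 6144 spots, and 4984 had at least 2 of 3 values above 0 at both times and were tested. Of these, 4718 had all 6 values and 266 lacked at least 1. Among the 1160 others, 654 were listed at 0 on all 6 arrays, 98 met the minimum at 120 min alone, 80 at 60 min alone, and 982 (the 654 included) at neither time. Total intensity was 544125, 1298254 and 1103538 on replicates 1 to 3 at 60 min and 402873, 1367205 and 996392 at 120 min. Replicate arrays of a group correlated at 0.843 or more at 60 min and at 0.807 or more at 120 min across spots.

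Relative to the typical mRNA, few transcripts moved detectably in this hour. After quantile normalisation 1 spot rose and 1 fell of 4984 tested (limma, adjusted p under 0.05), which is 0.0201% of spots each way and 0.0401% in all. The changes of all spots had a median of -0.02 on the log2 scale, with an interquartile range from -0.18 to 0.14. At an unadjusted p under 0.05 there were 304 spots, 6.1% of those tested, where 249.2 would be expected with no change at any spot. Of the 304, 161 (3.23%) were higher and 143 (2.87%) lower at 120 min. The median standard error of a spot's change was 0.20 (log2), so small changes were not detectable one spot at a time. With the replicate number left out of the model the counts were again 1 and 1, and 61 spots (1.22%) had an unadjusted p below 0.05.

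Large estimates came mostly from dim spots. A change of more than 1 on the log2 scale was estimated for 140 spots, of which 131 lay in the dimmest 25% by mean signal and 2 passed the test. The standard deviation of the change over spots was 0.68 in the dimmest 25% and 0.23 in the brightest 25%. Between the replicate pairs the changes of single spots agreed little, with correlations across spots of -0.05 between pairs 1 and 2, 0.15 between pairs 1 and 3, and -0.03 between pairs 2 and 3. In the brightest 25% the mean of these 3 correlations was 0.22, and in the dimmest 25% it was -0.02. All 3 pairs pointed up at 675 spots and down at 802, of the 4718 with 3 pairs, which puts 31.3% in one direction. Random signs would also give one direction at many spots, and an excess over that was not tested.

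**Figure D1:**
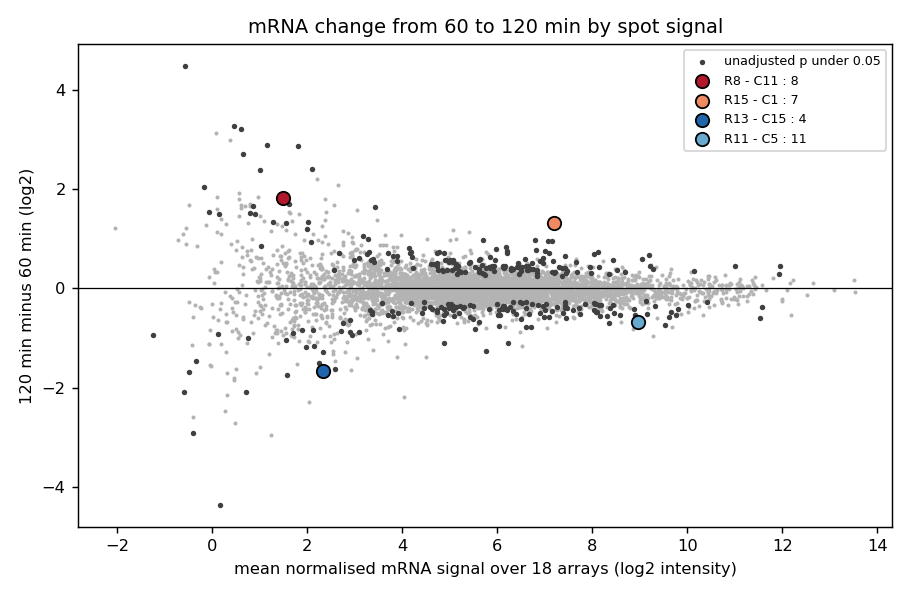
Change in mRNA from 60 to 120 min (log2, vertical) against the mean normalised signal of the spot over 18 arrays (log2 intensity, horizontal), one point per spot tested; dark points have an unadjusted p under 0.05 and the 4 named spots are coloured. The wide scatter lies at the dim end, where 131 of the 140 spots with changes beyond 1 are found, and both called spots are dim.

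The rule for naming spots asked for a signal above the median and took none (0 spots), because both called spots were dim. The 2 called spots, and the spot with the next lowest p in each direction, were chosen after their values were seen. Spot R13 - C15 : 4 carried the fall. Its deposited mRNA intensities were 5.97, 15.5 and 7.81 at 60 min and 2.26, 4.27 and 1.91 at 120 min. All 3 arrays at 120 min lay below all 3 at 60 min, and every pair fell. On the normalised log2 scale the level went from 3.05 ± 0.06 (SD, n = 3) to 1.39 ± 0.32 (SD, n = 3), a change of -1.66 ± 0.19 (SE; limma adjusted p = 0.0039, and 0.000969 to 0.656 over the alternatives). Before the interval the level was 2.25 at 0 min and 2.87 at 30 min, and after it 2.11 (180 min) and 2.31 (240 min), so 120 min was the lowest of the 6 group means. The nascent signal of this spot changed by -1.02 ± 0.29 (SE) over the same interval, with an adjusted p of 0.999 and an unadjusted p of 0.00343 (limma). In the authors' deposited table its mRNA abundance was 0.202 at 60 min and 0.0538 at 120 min, and its synthesis rate 0.036 and 0.0134. The spot lay at percentile 8.35 of mean mRNA signal.

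The rise was carried by spot R8 - C11 : 8, and it rests on 2 of the 3 arrays at 120 min. Its deposited mRNA intensities were 0.846, 1.18 and 0.996 at 60 min and 2.71, 5.7 and 0 at 120 min, and the 0 counted as missing. The 2 values above 0 at 120 min exceeded those at 60 min, whereas replicate 3 fell to 0. The normalised log2 level went from 0.00 ± 0.19 (SD, n = 3) to 1.80 ± 0.24 (SD, n = 2), a change of 1.82 ± 0.14 (SE; limma adjusted p = 0.00126, and 0.000164 to 0.999 over the alternatives). With zeros set to the lowest value of the array the change was 0.38 and the limma adjusted p 0.999, which ended the call. At 30 min, before the interval, the level was 1.58 ± 0.08 (SD, n = 3), so 60 min stood below the times on either side. Its nascent signal changed by 0.32 ± 0.52 (SE), less than its error. The spot lay at percentile 4.23 of mean mRNA signal.

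Among brighter spots the lowest p for a rise belonged to R15 - C1 : 7, at percentile 79.3. Its deposited mRNA intensities were 59.4, 151 and 74.6 at 60 min and 171, 322 and 149 at 120 min. Every pair was higher at 120 min, by 1.89, 1.02 and 1.02 on the normalised log2 scale, and the groups did not overlap on that scale. The change of 1.31 ± 0.23 (SE) did not pass, with a limma adjusted p of 0.131. The limma adjusted p was 0.0169 with a common median, 0.0133 with cyclic loess and 0.0317 with array weights, but 1.00 without the replicate block, 0.656 with only the 6 arrays compared and 0.0795 to 0.542 with 1 of those arrays left out. The level continued from 7.65 ± 0.68 at 120 min to 8.28 ± 0.73 at 180 min and 8.48 ± 0.95 at 240 min (SD of 3 arrays each). In the 12 arrays outside the interval its late minus early change was 2.22 ± 0.15 (SE; limma adjusted p = 0.000196). Nascent signal at this spot was higher by 1.32 ± 0.33 (SE; limma adjusted p = 0.999, unadjusted p = 0.00129). The authors' deposited table gave mRNA abundances of 2.25 and 2.88 and synthesis rates of 0.277 and 0.571 at 60 and 120 min.

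The bright spot R11 - C5 : 11, at percentile 94.2, had the next lowest p for a fall. Its deposited mRNA intensities were 426, 1084 and 731 at 60 min and 188, 988 and 372 at 120 min. Every pair was lower at 120 min, but the normalised groups overlapped, since replicate 2 at 120 min stood above replicate 3 at 60 min. The change was -0.69 ± 0.15 (SE; limma adjusted p = 0.383, and 0.064 to 1.00 over the alternatives), with -0.99, -0.25 and -0.82 in the 3 pairs. Its nascent signal changed by 0.07 ± 0.15 (SE), within its error. The authors' deposited table gave a mRNA abundance of 16.2 at 60 min and 7.41 at 120 min.

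**Figure D2:**
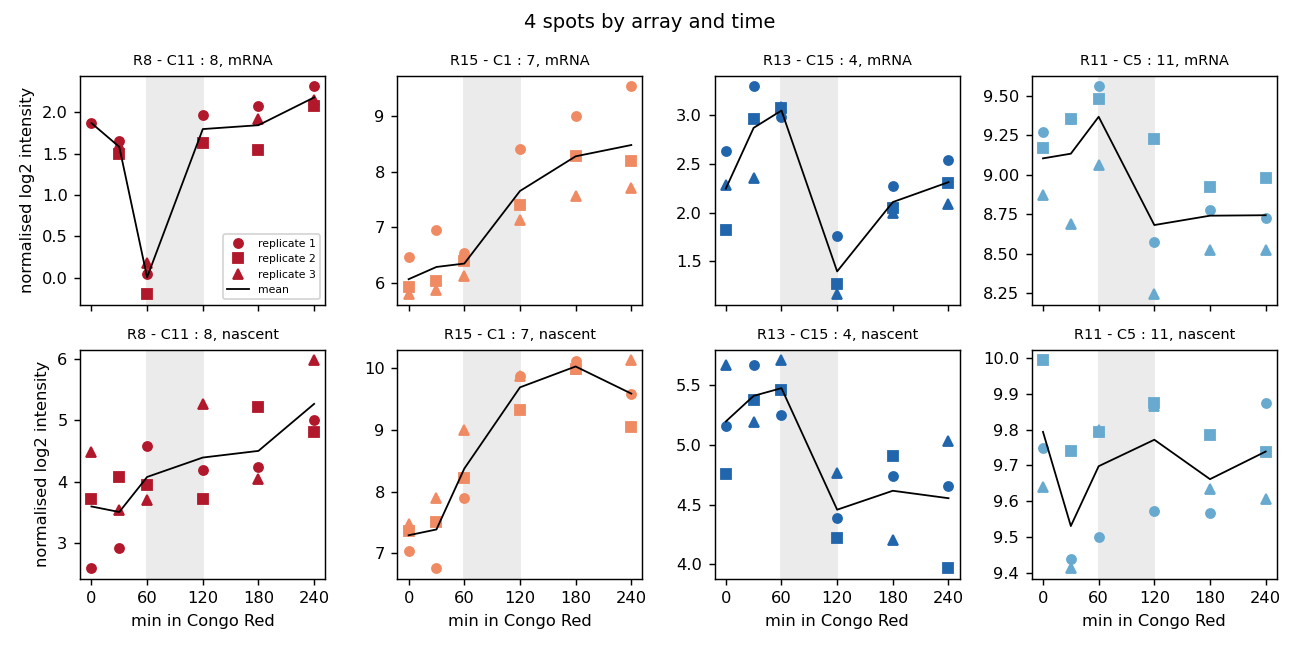
Normalised log2 intensity (vertical) of the 4 named spots against min in Congo Red, with mRNA in the upper row and nascent transcription in the lower; markers are single arrays, the line is the group mean and the shaded band is the interval from 60 to 120 min. R13 - C15 : 4 was at its lowest mRNA level at 120 min, and R8 - C11 : 8 has only 2 arrays there.

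Although single spots rarely passed, the spots that changed over the whole course lay mostly on the same side of 0 in this hour. To choose such spots without the arrays of the step, the mean of 180 and 240 min was compared with the mean of 0 and 30 min in the other 12 mRNA arrays, normalised and fitted by themselves. Of 4919 spots tested, 386 rose (7.85%) and 300 fell (6.1%) at an adjusted p under 0.05 (limma), by medians of 0.66 and -0.61 on the log2 scale. Of the 385 late risers measured in the step, 312 were above 0 between 60 and 120 min, which is 81.0%, where 46.1% of all spots tested were. Their median change in the step was 0.20, against -0.02 for all spots. Of the 300 late fallers, 242 were below 0 in the step and 58 above, with a median of -0.21. None of either list passed in the step by itself (0 spots, limma). At an unadjusted p under 0.05, 75 late risers were up and 38 late fallers down, where 3.23% and 2.87% of all spots were, and 2 of each list went the other way.

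The shift was seen in each replicate pair. The late risers had median changes of 0.27, 0.26 and 0.11 in pairs 1, 2 and 3, a mean of 0.21 ± 0.09 (SD, n = 3). The late fallers had -0.34, -0.11 and -0.13, a mean of -0.19 ± 0.13 (SD, n = 3). All 3 pairs thus lay on one side of 0 for each list. Without replicate 1 at 60 min the median step of the late fallers was -0.14. Without the dimmest 25% of spots the medians were 0.20 for 328 risers and -0.21 for 249 fallers. The lists themselves depend on single arrays and on the pairing. Without replicate 1 or replicate 2 at 0, 30, 180 or 240 min there were 199 to 249 risers and 124 to 182 fallers, and without the replicate block 70 risers and 23 fallers. Those 70 and 23 spots had median changes in the step of 0.35 and -0.22.

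In levels, the late risers stood at a median normalised log2 intensity of 5.96 ± 0.03 (SD) on the 3 arrays at 60 min and 6.13 ± 0.10 (SD) on those at 120 min. For the late fallers these levels were 6.28 ± 0.04 and 6.12 ± 0.09 (SD, n = 3 each), so both lists met at 120 min. At 0, 30, 180 and 240 min, the times that chose the lists, the risers had 5.36, 5.72, 6.31 and 6.29 and the fallers 6.68, 6.40, 5.98 and 5.99. The median of all spots is fixed by the normalisation.

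**Figure D3:**
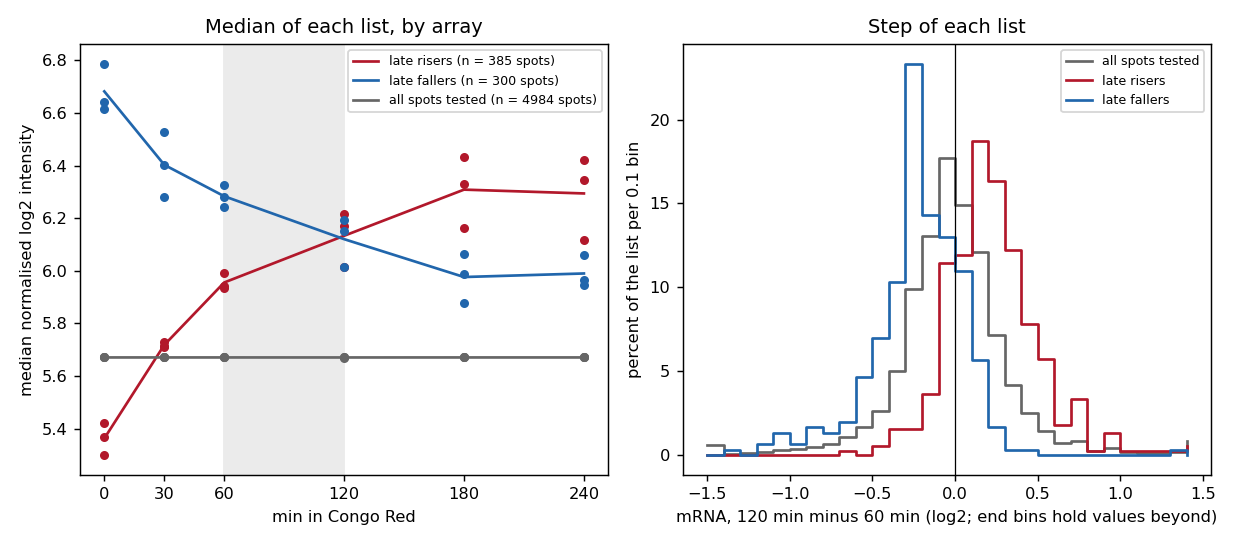
Left, median normalised log2 intensity of the late risers, late fallers and all spots against min in Congo Red, with a point for each array, a line for the mean and the interval from 60 to 120 min shaded; the lists were chosen on the arrays outside the shading and its 2 edges. Right, percent of each list in bins of the 60 to 120 min change (log2), in which the risers lie mostly above 0 (312 of 385) and the fallers mostly below (242 of 300).

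The relation was graded over all spots and not limited to those called. With the 4882 spots that had both values placed in 10 bins by their late minus early change, the median step went from -0.27 in the lowest bin to 0.26 in the highest. The share of spots above 0 went from 20.4% to 77.9%. Across these spots Pearson's r was 0.42 and Spearman's rho 0.45, and single pairs gave r of 0.32, 0.25 and 0.22. These correlations are across spots, which share arrays and normalisation and are not replicates.

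**Figure D4:**
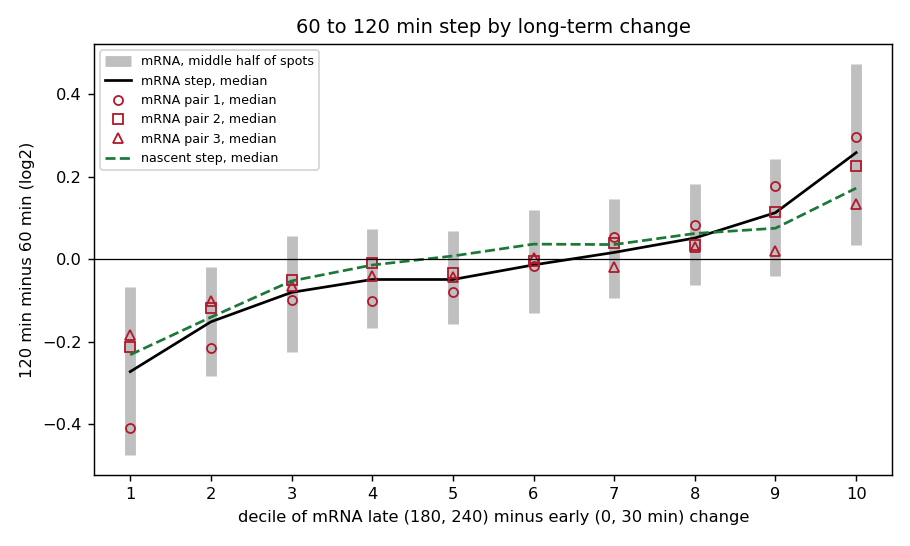
Change from 60 to 120 min (log2, vertical) in 10 bins of spots by their mRNA change from early (0 and 30 min) to late (180 and 240 min) arrays. The grey bars are interquartile ranges of the mRNA change, the solid line its median, the red markers the medians in single replicate pairs and the dashed line the median nascent change; both lines are lowest in the first bin and highest in the last.

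Read the other way, the spots with an unadjusted p under 0.05 in the step were followed in the 12 arrays outside it. The calls given below (75 and 2, 38 and 2) are spots already counted in the late lists above, and are no separate evidence. The counts by sign likewise restate the relation across spots given above. Of the 161 spots higher at 120 min at an unadjusted p under 0.05, 154 were tested late against early, 132 of them had a late minus early change above 0, and 75 were called up and 2 down. The background there was 7.85% of spots for a call up and 46.9% for a change above 0. Of the 143 lower spots, 133 were tested, 113 had a change below 0, and 38 were called down and 2 up, where the background for a call down was 6.1%. The 2 spots called in the step added 0 to these calls, as R13 - C15 : 4 had a limma adjusted p of 0.137 late against early and R8 - C11 : 8 had too few values at 0 min. The sign late against early was opposite to that of the step at 22 of the 154 and 20 of the 133.

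The step was set against the last interval of the same length, 180 to 240 min, with which it shares no array. The difference between these steps passed at 0 of 4918 spots (limma), while 140 (2.85%) had an unadjusted p below 0.05. For R13 - C15 : 4 the difference was -1.86 ± 0.28 (SE) and for R8 - C11 : 8 it was 1.47 ± 0.19 (SE), both with a limma adjusted p of 0.0544. Taken by themselves, the intervals from 0 to 30, 30 to 60, 120 to 180 and 180 to 240 min had 11, 1, 1 and 0 spots called (limma), or 0.22%, 0.02%, 0.0201% and 0% of those tested. At an unadjusted p below 0.05 these intervals had 8.49%, 4.16%, 4.29% and 2.75% of spots. Adjacent intervals share the arrays of a time, and differences other than the one above were not tested.

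Nascent transcription gave a second readout of the same interval. No spot passed on the nascent arrays (0 of 5169, limma), and 139 (2.69%) had an unadjusted p below 0.05. With the replicate block 2 spots (0.0387%) rose, and 220 (4.26%) had an unadjusted p below 0.05. The late risers of mRNA had a median nascent change of 0.15, with 305 of 385 above 0. The late fallers had one of -0.19, with 223 of 285 below 0. Over all 5169 spots the median nascent change was 0.01, and 51.5% of spots were above 0. Spots that were higher in mRNA at 120 min at an unadjusted p under 0.05 had a median nascent change of 0.31, with 136 of 157 above 0. Those that were lower had one of -0.10, with 84 of 133 below 0 and 36.8% above it. All 4 medians thus had the sign of the mRNA list. The last 2 lists, however, were chosen on the mRNA step itself. Changes on arrays of the same number correlated more between the assays than changes on arrays of different numbers, as given below. Variation shared by number could therefore give the same signs for these 2 lists, and its part was not tested. Whether the lists differ in the size of their nascent change was not tested either.

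The changes in mRNA and in nascent transcription correlated across 4894 spots at Pearson's r of 0.27 and Spearman's rho of 0.37. In the brightest 25% of mRNA spots r was 0.50 and in the dimmest 25% it was 0.14. Arrays of the same number gave 0.29, 0.26 and 0.16 for replicates 1 to 3, and arrays of different numbers between -0.00 and 0.13. Whether arrays of one number in the 2 assays came from one culture is not given in the sources used here. These values describe spots on shared arrays and carry no p. The difference between the mRNA step and the nascent step passed at 0 of 4894 spots (limma). An unadjusted p below 0.05 was found at 70 of them (1.43%), and the median standard error of a spot's difference was 0.31 (log2).

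The level of mRNA as a whole was read from the authors' deposited table, because normalisation removes from the arrays any change that all spots share. In that table mRNA abundance was lower at 120 min for most spots. Over the 4468 spots complete in its 12 columns, the median mRNA abundance was 1.60 at 60 min and 1.17 at 120 min, and the median ratio per spot was 0.730. The means were 5.29 and 3.60, a ratio of 0.680. The ratio was below 1 at 4098 spots, which is 91.7%, and above 1 at 370. It was above 2 at 5 spots and below 0.5 at 210. In the other intervals of the authors' deposited table, in order of time, the median ratios of mRNA abundance were 1.04, 0.997, 0.895 and 0.960, so the drop from 60 to 120 min was the largest of the 5. These are the authors' combined values with no replicates behind them here, and the differences were not tested.

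Synthesis rate stayed nearer to its 60 min value than mRNA abundance did in the authors' deposited table, a difference that was not tested. How that table was scaled is not given, so the order of these measures could depend on the scaling. On the unnormalised mRNA arrays the geometric mean ratio of 120 over 60 min was 0.922. No unnormalised nascent signal was set beside it. In the authors' deposited table the median ratio of synthesis rate from 60 to 120 min was 0.851, and 83.7% of spots were lower. The authors' rate is per cell volume. Multiplied by the volume factor of 1.17, the median ratio was 0.996. Per cell volume, as deposited, the largest fall in synthesis rate came in the next interval, from 120 to 180 min, with a median ratio of 0.749. That value compares with the 0.851 and not with the 0.996, as the volume factor went from 1.17 to 1.44 in that interval. Multiplied by 1.17, the median ratio of mRNA abundance from 60 to 120 min was 0.854, and 78.6% of spots remained below 1. It is not stated whether cell volume had entered that measure. The quotient of mRNA abundance over synthesis rate, which at steady state is proportional to the lifetime of a transcript, had a median of 21.4 at 60 min and 18.9 at 120 min in the authors' units. Its median ratio per spot was 0.863, with 74.5% of spots lower, and this quotient too depends on the volume treatment of both measures. Both measures were lower at 120 min for most spots, so steady state cannot be assumed and the quotient is not read as a lifetime.

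The lower abundance at 120 min extended over all levels of abundance and was somewhat more marked for abundant transcripts. In 10 bins of spots by mRNA abundance at 0 min, a time outside the step, the median ratio in the authors' deposited table went from 0.763 in the lowest bin to 0.684 in the highest. The highest bin held 64.7% of the summed abundance at 60 min and 61.6% at 120 min. On the normalised arrays the median step went from 0.02 to -0.08 between the same bins. The synthesis rate ratios were 0.885 in the lowest bin and 0.829 in the highest. Late risers stood above the typical spot, with a median ratio of 0.847 over 356 spots, and 78 of them were above 1. Late fallers had a median ratio of 0.652 over 274 spots, and 6 of them were above 1. With the volume factor these medians were 0.991 and 0.763. For synthesis rate the late risers had a median ratio of 0.936 and the late fallers one of 0.745 in the authors' deposited table.

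**Figure D5:**
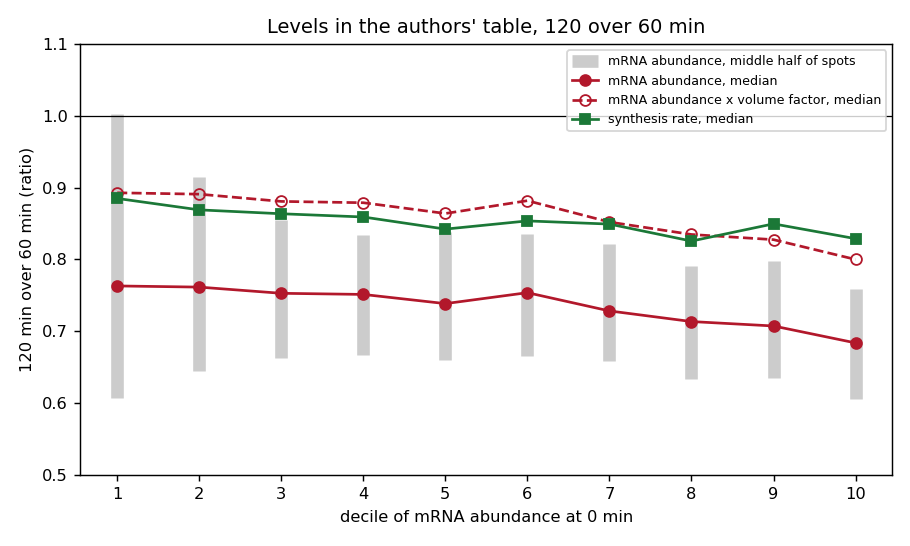
Ratio of 120 over 60 min in the authors' deposited table (vertical) in 10 bins of spots by mRNA abundance at 0 min; filled circles are medians of mRNA abundance, open circles the same times the volume factor, squares medians of synthesis rate and grey bars interquartile ranges of mRNA abundance. The medians of mRNA abundance lie below 1 in all 10 bins, from 0.763 in the lowest to 0.684 in the highest.

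The arrays before normalisation did not show a fall of that size in every pair. Over the 4591 spots above 0 on every one of the 18 mRNA arrays, the median intensity was 37.6, 108 and 60.6 on replicates 1 to 3 at 60 min and 30.4, 116 and 54.8 at 120 min. The signal was lower at 120 min in pairs 1 and 3 and higher in pair 2. The ratios were 0.809, 1.07 and 0.905, a geometric mean of 0.922. An exact sign-flip permutation test gave a two-sided p of 0.5. As 0.25 is the smallest p that 3 pairs allow, this test could not have shown a difference from 1. Over the 4584 spots with both values, the log2 ratio of the authors' deposited table and the normalised array change correlated at Pearson's r of 0.62 and Spearman's rho of 0.71; both derive from the same arrays. How the authors scaled their table is not given in the sources used here, and its part in the lower values at 120 min was not tested.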

How the data were processed

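The deposited array files hold 1 intensity per spot, per the file headers, and carry neither background values nor gene names. Per the labels' protocols, mRNA was measured as 33P-dCTP-labelled cDNA primed with oligo-dT and nascent transcription as 33P-UTP run-on RNA. The authors' deposited table holds 1 signal per spot and time for mRNA abundance and for synthesis rate, with replicates combined; how it was scaled, and the scanner and background treatment, are not stated there. All of its columns could be mapped. No spot identifier matched the RefSeq gene table, so the lists of wall, chitin, ribosomal and stress genes were not run.

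Values of 0 were taken as missing and the others to log2 with no pseudocount. Spots needed at least 2 of 3 values above 0 in each group compared. Arrays of an assay were quantile normalised, and limma 3.58.1 (R 4.3.3) fitted time and, for mRNA, replicate number to all 18 arrays. The difference between assays was fitted to all 36 arrays, weighted by the residual spread of each assay. P-values were Benjamini-Hochberg adjusted over all spots tested, with a threshold of 0.05. Plots used Python 3.11.15 and matplotlib 3.10.9.

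The rule of the comparison pairs arrays by number. Deviations of same-numbered arrays from their group means correlated at 0.812, 0.709 and 0.800 between 60 and 120 min, and between 0.609 and 0.834 over all 45 such pairs of mRNA arrays. The pairing thus rests on file names and data, not on the labels. On the nascent arrays the block was an alternative. The naming rule took the largest changes past the threshold with 1 sign in all pairs and a signal above the median. The interval, lists and tests were chosen with earlier results of these data known. The number of arrays limits the precision.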

Additional observations from a re-analysis of the deposited data

How the results depend on the processing

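The call of 1 rise and 1 fall in mRNA stayed at 1 and 1 without the replicate block, with a random replicate block, with each printing position centred, and when any 1 of the 6 arrays was left out (1 to 1 for both). For the rise, leaving out arrays could not bring in replicate 3 at 120 min, whose 0 at R8 - C11 : 8 already counted as missing. Its change stayed at 1.82 without that array, and without replicate 1 or 2 at 120 min it rested on 1 value there. There were 0 rises and 0 falls with only the 6 arrays compared or without the dimmest 25% of spots, 0 rises with zeros at the lowest value or with a value required on all 18 arrays, and 2 rises with a common median, cyclic loess or array weights. The fewer arrays and spots of the first settings follow from their construction; other causes were not tested. Nascent rises went from 0 to 2 with the replicate block, and were 0 to 0 when an array was left out. The difference between the assays was 0 to 1 spots when 1 array was left out, with 1 without mRNA replicate 1 or 2 at 60 min, mRNA replicate 1 at 120 min, or nascent replicate 1 or 2 at 120 min. The difference from the step of 180 to 240 min was 1 spot with a common median or without replicate 1 at 60 min (range 0 to 1). The count of called spots that also passed late against early was 0 in all 14 alternatives. Late risers numbered 386, but 70 with no replicate block and 199 to 354 with 1 array left out; late fallers numbered 300, but 23 with no replicate block, 483 with a common median (beside 416 risers) and 124 to 249 with 1 array left out. The median step of the late risers ranged from 0.17 to 0.25 and of the late fallers from -0.24 to -0.14 when 1 array of the step was left out. These late alternatives were chosen after seeing the data. The mean mRNA abundance at 120 over 60 min in the authors' deposited table was 0.680 over spots with values in all columns or in both columns compared, 0.730 as the median of ratios and 0.796 with the volume factor. The ratio of unnormalised array signal was 0.922, 0.890 with totals and 0.855 to 0.985 with 1 pair left out. With no background values, changes of dim spots are rough.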

Other observations

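Some spots were at 0 on all 3 mRNA arrays of one time and above 0 at the other, and so lay outside the test. At 5 spots all 3 mRNA arrays were at 0 at 60 min and above 0 at 120 min, with intensities from 0.04 to 6.5 and a median of 0.637. At 1 spot all 3 arrays were above 0 at 60 min and at 0 at 120 min, with intensities from 0.198 to 1.95. With 2 or 3 values above 0 counted, 27 spots were above 0 at 120 min alone and 13 at 60 min alone. Of the 27, 6 were above 0 in at least 2 arrays at both 180 and 240 min, and 3 at both 0 and 30 min. Of the 13, 2 were above 0 in at least 2 arrays at both 180 and 240 min, and 4 at both 0 and 30 min, so most of these spots were not steadily above 0 on either side of the interval. These intensities are low, and no fold is given against a group at 0.

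The neighbours of the named spots on the array were also read. The 14 other tested spots in the block of R13 - C15 : 4 had a median change of -0.27, between -0.76 and 0.33, and the 10 around R8 - C11 : 8 had one of -0.12, between -2.18 and 0.20. The 13 around R11 - C5 : 11 all had changes below 0, between -1.002 and -0.03 with a median of -0.17, the direction of that spot. The 12 around R15 - C1 : 7 had a median of 0.01 and lay between -0.36 and 1.28, against 1.31 for the spot itself. Over the 16 printing positions the median change of the spots tested ranged from -0.25 to 0.07.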
